A study of Mus musculus with 6 samples.

Results

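A group of 10 receptor genes that bind modified lipoproteins, lipids, sugars or cell debris were followed in mouse macrophages with lowered *Etv5*. They were *Cd36*, *Msr1*, *Scarb1*, *Scarb2*, *Marco*, *Olr1*, *Cd68*, *Stab1*, *Mrc1* and *Lrp1*, taken by symbol, and all 10 were found among the 24786 gene symbols of the expression table. The rule matches symbols and applies no threshold to a measured value, but the list was drawn up with earlier results of these data known. The cells were Raw264.7, a macrophage line from an Abelson murine leukemia virus-induced tumor, to which the labels give the strain C57BL/6 and the age of postnatal day 21. BALB/c is the strain this line is usually traced to. Raw264.7 cells received lentivirus with a non-targeting hairpin (sh-NC, 3 libraries) or with a hairpin against *Etv5* (sh-*Etv5*, 3 libraries). *Etv5* encodes an ETS-family transcription factor. The labels give no separate infections for the libraries of a group, and the methods do not say which of several *Etv5* hairpins was sequenced. A p-value therefore measures the spread between libraries, which may be technical. PolyA RNA was sequenced. The labels place the readout at 24 or 48 hours after infection, whereas the study describes the sequenced cells as stably carrying the hairpin, with puromycin selection over passages, so that these libraries need not show an acute loss of *Etv5*.

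Scavenger receptors are surface or endosomal proteins that bind negatively charged or oxidized ligands rather than a common fold, and they are sorted into lettered classes by structure. Class A holds the trimeric collagen-like receptors (*Msr1*, *Marco*) and class B the CD36 superfamily, whose chain crosses the membrane at both ends (*Cd36*, *Scarb1*, *Scarb2*). The sialomucin CD68, the lectin-like receptors LOX-1 (*Olr1*) and CD206 (*Mrc1*), stabilin-1 (*Stab1*) and the very large endocytic receptor LRP1 make up further classes. In macrophages, unregulated entry of oxidized lipoproteins through some of them loads the cell with cholesterol and gives foam cells, and in fat tissue macrophages take up lipid released by adipocytes.

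The knockdown was partial. *Etv5* was at 9.49 ± 0.367 RPKM in sh-NC and 5.13 ± 0.196 RPKM in sh-*Etv5* libraries (SD, n = 3), without overlap. RPKM, the deposited unit, scales reads to the length of the gene and to the mapped reads of the library, so that levels of different genes can be set side by side. The depth was not stated, and was estimated from steps in low values. The commonest step, met at 34 to 57 of 946 to 1158 low genes by library, would stand for 20600000 to 20700000 mapped reads, or read pairs, in sh-NC and 18600000 to 22000000 in sh-*Etv5* libraries. Most low genes did not lie on it, so that numbers of reads given here are rough. Genes with at least 1 RPKM in at least 3 of the 6 libraries (10738 genes) were compared with limma on log2(RPKM + 1), and a Benjamini-Hochberg adjusted p under 0.05 was called. Fold changes on that scale understate the change of genes near or under 1 RPKM.

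The cells carried the markers of their label. All 8 macrophage markers passed the filter, and 3 of them (*Itgam*, *Adgre1* and *Cd14*) were called higher and 4 (*Csf1r*, *Fcgr1*, *Tyrobp* and *Lyz2*) lower in sh-*Etv5* libraries, with *Ptprc* not called. The log2 fold changes ran from -0.81 for *Csf1r* to 1.88 for *Itgam*. Over all tested genes 74.3% were called. Of 25 markers of T cells, B cells, fibroblasts, endothelial, epithelial and fat cells and neutrophils, 1 reached 1 RPKM in any library. That marker was *S100a8*, a neutrophil calcium-binding protein that activated macrophages also make, at 0.306 ± 0.184 RPKM in sh-NC and 17.1 ± 2.29 RPKM in sh-*Etv5* libraries (SD, n = 3). The neutrophil markers *S100a9* and *Ly6g* were listed at 0 in all 6 libraries, and *Mpo* did not exceed 0.021 RPKM. What part the change in *S100a8* or in the macrophage markers has in the receptor results was not tested. In such bulk RNA, fewer cells of a kind and less RNA per cell cannot be told apart.

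The promoter sequences of the receptors come first, because the factor that was lowered binds DNA at a GGAA core. RefSeq windows from 250 bases before to 50 bases after the start (GRCm38.p6) were found for 8 of the 10 genes, and not for *Msr1* and *Scarb1*. The windows shown are those of *Cd36*, which had the largest change of the members, of *Stab1*, the other member that rose several-fold, and of *Cd68*, the most abundant member, which fell. Each is written 5′ to 3′ along the transcribed minus strand, and capitals mark GGAA or its reverse complement TTCC. They lie at chr5:17835847-17836146, chr14:31168592-31168891 and chr11:69666121-69666420. The *Cd36* window sits inside the longer gene span of GENCODE, so it is 1 of several possible starts.

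Cd36: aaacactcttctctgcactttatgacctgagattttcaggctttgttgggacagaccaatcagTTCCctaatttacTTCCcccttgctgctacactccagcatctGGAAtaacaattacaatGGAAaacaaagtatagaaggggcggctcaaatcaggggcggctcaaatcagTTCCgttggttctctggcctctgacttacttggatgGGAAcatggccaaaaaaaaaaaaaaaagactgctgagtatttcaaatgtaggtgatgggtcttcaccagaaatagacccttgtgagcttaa

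Stab1: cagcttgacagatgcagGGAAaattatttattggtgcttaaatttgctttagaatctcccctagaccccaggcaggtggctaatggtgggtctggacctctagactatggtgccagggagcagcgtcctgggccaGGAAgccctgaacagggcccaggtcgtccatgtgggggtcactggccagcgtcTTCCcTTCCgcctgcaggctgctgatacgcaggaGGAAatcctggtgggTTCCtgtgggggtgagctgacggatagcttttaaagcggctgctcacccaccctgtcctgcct

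Cd68: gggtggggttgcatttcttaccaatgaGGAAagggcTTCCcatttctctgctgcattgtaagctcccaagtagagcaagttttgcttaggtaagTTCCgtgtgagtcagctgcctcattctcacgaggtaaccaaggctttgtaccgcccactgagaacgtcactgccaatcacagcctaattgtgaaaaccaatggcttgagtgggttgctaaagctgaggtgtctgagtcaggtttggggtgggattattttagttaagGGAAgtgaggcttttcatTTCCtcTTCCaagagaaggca

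Each of these 3 windows held 6 matches to GGAA on either strand, overlapping matches included. The 8 windows held between 4 (*Lrp1*) and 7 (*Marco*) matches, whether the gene rose, fell or was silent. Such matches were common. Of all 32851 promoter windows, 96.0% held at least 1, with a median of 3. The longer ETS-type letters CCGGAA, whose matches are also matches to GGAA, were found in 14.9% of all windows and in 0 of the 8, on both strands. The letters GAGGAA, searched in the same way and also holding GGAA, were found in 28.3% of all windows and in 5 of the 8, namely those of *Marco*, *Olr1*, *Cd68*, *Stab1* and *Mrc1*. These are letter matches in short windows and not measured binding.

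At the level of the whole group, receptors were called in both directions, as were tested genes in general. Of the 10 genes, 7 passed the filter on low values, and 2 of these (*Cd36* and *Stab1*) passed only through the sh-*Etv5* libraries, so that they had to differ. Among the 7, 3 were called higher (*Cd36*, *Stab1* and *Msr1*), 3 lower (*Cd68*, *Scarb2* and *Lrp1*) and 1 was not called (*Scarb1*). Most genes moved in this experiment. Of all tested genes 74.3% were called, made up of 33.3% higher and 41.0% lower. The values of sh-NC and sh-*Etv5* lay apart in 76.4% of all tested genes and in 6 of the 7 receptors. Since most genes were called, nothing is read from the number of receptors called. An absolute log2 fold change above 1 together with a call was seen in 9.23% of tested genes and in *Cd36* and *Stab1* among the receptors. These are the 2 genes that had to differ. *Marco*, *Olr1* and *Mrc1* stayed under the filter.

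**Figure D1:**
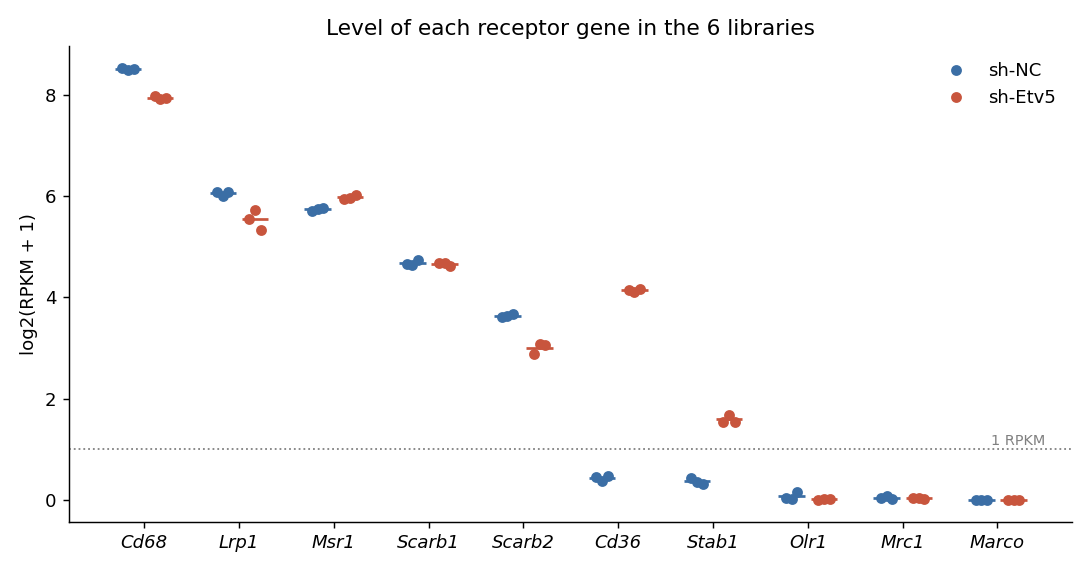
Level of each receptor gene as log2(RPKM + 1) on the vertical axis, with 1 point per library, sh-NC in blue and sh-*Etv5* in red, and a bar at each group mean (n = 3). *Cd36* and *Stab1* cross the dotted line at 1 RPKM between the groups, *Cd68* is the highest gene in both, and *Olr1*, *Mrc1* and *Marco* stay close to 0.

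Within the class B receptors, *Cd36* rose while its relatives stayed level or fell. *Cd36* encodes the receptor for oxidized LDL and long-chain fatty acids, which the study also measured as a marker of metabolically activated (MMe) macrophages. It was measured at 0.380, 0.306 and 0.391 RPKM in sh-NC, against 16.7, 16.3 and 16.9 RPKM in sh-*Etv5*. Every sh-*Etv5* library lay far above every sh-NC library. The control values rest on an estimated 28.2, 22.7 and 28.9 reads, against 1127 to 1287 reads in sh-*Etv5* libraries. The ratio of the means was 46.3. The log2 fold change of 3.70 (95% interval 3.56 to 3.84) ranked 31 among rises of the 10738 tested genes. *Cd36* passed the filter only through the sh-*Etv5* libraries, so that it had to be higher. By level, *Cd36* moved from place 11459 to place 3828 among the 24786 symbols. The gene lies on the minus strand of chromosome 5 (GRCm38, 17781690 to 17888801), with no shared 50-base sequence with another gene and no exon overlap. Of its nearest protein-coding neighbors, *Sema3c* was listed at 0 in every library, and *Gnat3* did not exceed 0.192 RPKM and overlapped between groups.

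*Scarb1* encodes SR-BI, the receptor for high-density lipoprotein, which moves cholesterol esters and free cholesterol across the membrane. Its values were 24.2, 24.0 and 25.8 RPKM in sh-NC and 24.7, 24.7 and 23.7 RPKM in sh-*Etv5* libraries. The groups overlapped. The log2 fold change was -0.02, with a 95% interval from -0.11 to 0.08 (limma adjusted p = 0.751). *Scarb1* lies on chromosome 5 from 125277087 to 125341094, on the minus strand, far from *Cd36*.

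*Scarb2* encodes LIMP-2, a protein of the lysosome membrane that carries beta-glucocerebrosidase to the lysosome. Values of 11.2, 11.3 and 11.8 RPKM in sh-NC stood against 6.35, 7.46 and 7.35 RPKM in sh-*Etv5* libraries. The groups did not overlap, and sh-*Etv5* replicate 1 was the lowest. The mean fell by 38.4%, or -0.63 ± 0.0631 (SE) on the log2 scale, with an adjusted p of 3.87e-06 in limma. It is also on the minus strand of chromosome 5 (92441314 to 92506833).

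These opposed directions changed the makeup of the class. Summed over the 3 class B genes, the level went from 36.5 ± 1.25 to 48.1 ± 0.331 RPKM (SD, n = 3). *Cd36* made up 0.857% to 1.06% of that sum in sh-NC libraries and 33.6% to 35.2% in sh-*Etv5* libraries. The share of *Scarb2* went from 31.4% ± 0.399 to 14.7% ± 1.20 (SD, n = 3), and *Scarb1* remained the largest part with 67.6% ± 0.314 and 50.7% ± 1.14. In order of level, *Cd36* stood below *Scarb2* in sh-NC and above it in sh-*Etv5* libraries, without overlap in either group.

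**Figure D2:**
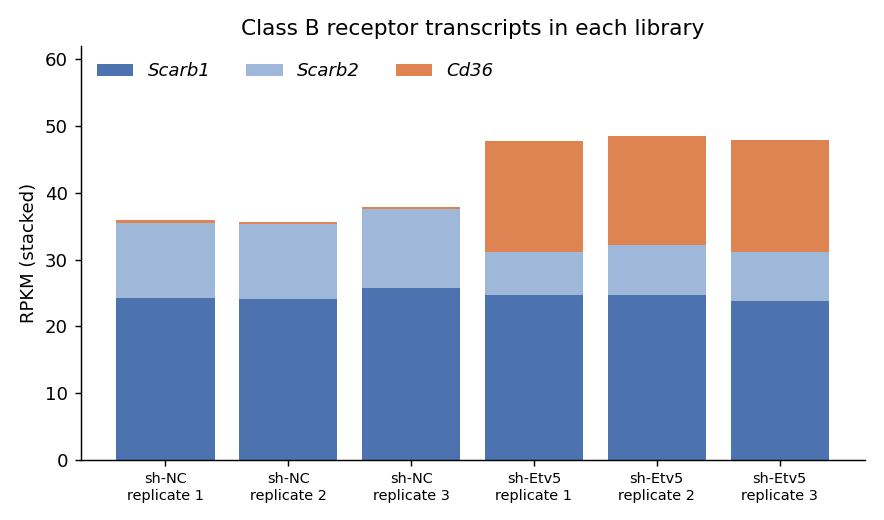
Stacked RPKM of the 3 class B genes in each of the 6 libraries, with *Scarb1* in dark blue, *Scarb2* in light blue and *Cd36* in orange. The *Scarb1* segment lies between 23.7 and 25.8 RPKM throughout, while *Cd36* is barely visible in sh-NC and between 16.3 and 16.9 RPKM in sh-*Etv5* libraries.

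The class A receptors differed from each other in whether they were expressed at all. *Msr1* encodes the macrophage scavenger receptor SR-A, which takes up acetylated and oxidized LDL and bacterial ligands. Its level was 51.2, 52.4 and 53.8 RPKM in sh-NC and 60.6, 61.4 and 63.9 RPKM in sh-*Etv5*. Every sh-*Etv5* value was above every sh-NC value, by a small margin. The mean rose by 18.1% or by 0.24 ± 0.0369 (SE) on the log2 scale, with an adjusted p of 0.000146 in limma. By absolute size this change ranked 6501 of the 10738 tested genes. *Msr1* is on the minus strand of chromosome 8 (39581685 to 39642673). *Marco*, a relative that binds bacteria and particles, was listed at 0 RPKM in all 6 libraries. At these depths a count of 0 allows 3 counts, or between 0.0708 and 0.0838 RPKM for the exon length of *Marco*, counting error only. Its expression was not detectable here in either group.

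*Cd68*, a heavily glycosylated protein of late endosomes and lysosomes and a standard macrophage marker, was the most abundant of the receptors and the one that lost most RPKM. Its values were 371, 361 and 362 RPKM in sh-NC and 251, 241 and 246 RPKM in sh-*Etv5* libraries. Each sh-*Etv5* value was below each sh-NC value. The mean fell by 32.5%, or -0.57 ± 0.0314 (SE) on the log2 scale, with an adjusted p of 2.87e-08 in limma. *Cd68* made up 70.2% ± 0.638 of the summed RPKM of the 10 genes in sh-NC and 60.9% ± 1.27 in sh-*Etv5* libraries (SD, n = 3). The sum itself went from 519.6 ± 6.44 to 404 ± 4.55 RPKM, and *Cd68* carried this fall. The other 9 genes summed to 155 ± 3.74 RPKM in sh-NC and 158 ± 5.75 RPKM in sh-*Etv5* libraries (SD, n = 3), and these sums overlapped. *Cd68* is a compact gene on the minus strand of chromosome 11 (69664213 to 69666153).

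*Stab1* encodes stabilin-1, a receptor for acetylated LDL, SPARC and phosphatidylserine on apoptotic cells. The 3 sh-NC values were 0.345, 0.287 and 0.250 RPKM, and the 3 sh-*Etv5* values 1.92, 2.22 and 1.90 RPKM. The groups did not overlap, and the ratio of the means was 6.86. On the log2 scale it rose by 1.22 ± 0.0851 (SE). *Stab1* too passed the filter only through the sh-*Etv5* libraries and had to be higher. The size depended on the pseudocount, since it was 2.74 with log2(RPKM + 0.01), and it was 0.95 with quantile normalization. An estimated 52.9 to 73.5 reads stood behind the sh-NC values and 364 to 504 behind the sh-*Etv5* values. *Stab1* spans 31139013 to 31168641 on the minus strand of chromosome 14, and 112 bases of its exons (1.09%) overlap *Nt5dc2* on the opposite strand. The latter gene went the other way, from 13.4 to 7.20 RPKM. The methods do not say whether counting used the strand. *Stab1* is also a gene of sinusoidal endothelium. The 4 endothelial markers summed to 0.171 to 0.363 RPKM in sh-NC and 1.12 to 1.27 RPKM in sh-*Etv5* libraries. Most of this was *Pecam1*, with at most 0.759 RPKM, and *Cdh5*, while *Kdr* and *Tek* did not exceed 0.0385 RPKM. The part of these low signals in the *Stab1* result was not tested.

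*Lrp1* encodes a receptor for apolipoprotein E remnants, protease complexes and matrix proteins. Values of 66.7, 63.4 and 67.1 RPKM in sh-NC compared with 46.1, 52.3 and 39.4 RPKM in sh-*Etv5* libraries. The groups did not overlap, but the sh-*Etv5* libraries spread more (SD 6.44 RPKM) than the sh-NC libraries (SD 1.99 RPKM), with replicate 2 highest and replicate 3 lowest. The mean fell by 30.1%, or -0.52 ± 0.0792 (SE) on the log2 scale, with an adjusted p of 0.000124 in limma. Its exons cover 17717 bases on chromosome 10 (127538161 to 127621148, minus strand), the longest of the members. The same libraries deviated in the same directions in long transcripts in general, by smaller amounts. Among 962 tested genes with at least 10000 exon bases, sh-*Etv5* replicate 2 was above the mean of the other two by a median of 0.08 on the log2 scale, and the same median was -0.05 for replicate 3. Among 3239 genes under 3000 bases these medians were -0.04 and 0.04. For *Lrp1* itself the same differences were 0.29 for replicate 2 and -0.31 for replicate 3. The median log2 fold change was -0.11 for the long and -0.03 for the short genes, beside -0.52 for *Lrp1*. The part of transcript length in the *Lrp1* value was not tested.

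As *Lrp1* fell and *Msr1* rose, their order changed. The ratio of *Lrp1* to *Msr1* was between 1.21 and 1.30 in the sh-NC libraries and between 0.617 and 0.852 in the sh-*Etv5* libraries. From highest to lowest mean RPKM, the sh-NC order was *Cd68*, *Lrp1*, *Msr1*, *Scarb1*, *Scarb2*, *Cd36*, *Stab1*, *Olr1*, *Mrc1* and *Marco*. In this order *Cd36* and *Stab1* overlapped, as did *Olr1* and *Mrc1*. In sh-*Etv5* libraries the order was *Cd68*, *Msr1*, *Lrp1*, *Scarb1*, *Cd36*, *Scarb2*, *Stab1*, *Mrc1*, *Olr1* and *Marco*, and only *Olr1* and *Marco* overlapped among neighbors. There *Mrc1* rested on an estimated 2.4 to 3.6 reads per library and *Olr1* on 0 to 1. Their order is not read as a change.

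The lectin-type receptors were close to silent. *Olr1* encodes LOX-1, an oxidized LDL receptor best known from endothelium and activated macrophages. It had 0.0271, 0.0135 and 0.123 RPKM in sh-NC and 0, 0.0128 and 0.0151 RPKM in sh-*Etv5* libraries. These values stand for an estimated 2, 1 and 9 reads and 0, 1 and 1 reads, and the groups overlapped (exact permutation test, two-sided, p = 0.2, where 0.1 is the smallest p that 3 against 3 can give). *Mrc1*, the mannose receptor CD206 and a marker of alternative activation, had 0.0274, 0.0545 and 0.00909 RPKM in sh-NC and 0.0298, 0.0256 and 0.0203 RPKM in sh-*Etv5* libraries. These groups overlapped as well (exact permutation test, two-sided, p = 0.8). No difference was detectable for either gene at this depth.

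**Figure D3:**
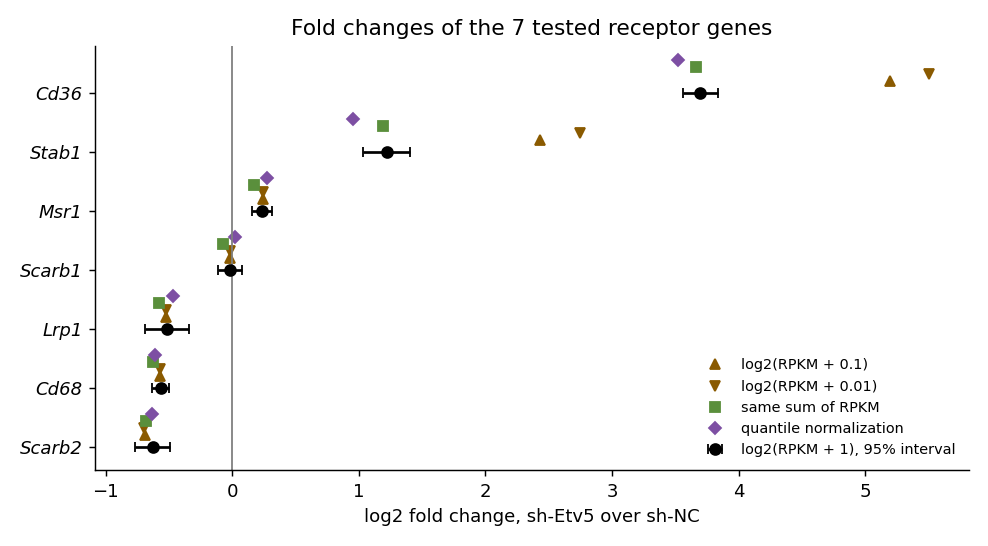
Log2 fold change of the 7 tested receptor genes, sh-*Etv5* over sh-NC, on the horizontal axis. Black points with bars show limma estimates on log2(RPKM + 1) with 95% intervals, and colored marks the values under other pseudocounts or scalings. *Cd36* and *Stab1* move right with smaller pseudocounts, to 5.50 and 2.74, and *Scarb1* straddles 0.

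Most of the other scavenger receptors on the list stayed under the filter. Of 13 other scavenger receptors, 2 passed the filter. *Colec12*, a class A relative with a lectin domain, fell from 66.2 ± 0.609 to 36.4 ± 1.45 RPKM (SD, n = 3; log2 fold change -0.84, limma adjusted p = 5.77e-09). In sh-NC libraries it was thus as abundant as *Lrp1*. *Cxcl16*, a membrane chemokine that also binds oxidized LDL, was at 4.24 and 3.71 RPKM and was not called (limma adjusted p = 0.0502). The hemoglobin scavenger receptor *Cd163* was listed at 0 in all libraries.

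The relatives of *Lrp1* were also called in both directions. Of 14 listed relatives 8 were tested, of which 5 were called higher, 2 lower and 1 was not called. Since 74.3% of all tested genes were called (33.3% higher, 41.0% lower), nothing is read from such counts, here or in the lists below. The median log2 fold change was 0.31, beside -0.05 over all tested genes. *Lrp11* had the largest rise, from 1.77 ± 0.194 to 5.98 ± 0.425 RPKM (SD, n = 3; log2 fold change 1.33, limma adjusted p = 4.06e-08). *Lrp10* (log2 fold change 0.59), *Lrp12* (0.42) and the sorting receptor *Sorl1* (0.38) rose too. The Wnt co-receptor *Lrp5* fell (-0.55). *Vldlr* was listed at 0 in all but 1 library, where it was at 0.000407 RPKM.

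Among 15 partners of lipoprotein uptake, 13 were tested, with 6 higher, 6 lower and 1 not called, and a median log2 fold change of 0.07. Over all tested genes 74.3% were called. The largest change by far was that of *Lpl*, lipoprotein lipase, which frees fatty acids from triglyceride-rich lipoproteins and bridges them to receptors. It fell from 174.7 ± 3.38 to 42.8 ± 1.34 RPKM (SD, n = 3), or -2.01 on the log2 scale, with an adjusted p of 3.12e-12 in limma. *Apoe*, a ligand of LRP1, fell (-0.53). *Pdzk1*, the adaptor of SR-BI, was at 2.18 and 0.912 RPKM (log2 fold change -0.73), but it passed the filter only through the sh-NC libraries, so that it had to be lower. *Mylip*, a ubiquitin ligase that limits lipoprotein uptake, fell (-0.49). *Npc2* (0.51), which binds cholesterol inside lysosomes, rose.

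For the uptake of apoptotic cells, 6 of 14 listed receptors and bridging proteins were tested. Of these, 2 were called higher, 2 lower and 2 were not called, beside 74.3% of all tested genes called. *Gas6*, the bridging ligand of the TAM receptors, was at 5.69 ± 0.151 RPKM in sh-NC and 0.627 ± 0.120 RPKM in sh-*Etv5* libraries (SD, n = 3; log2 fold change -2.04). It is 1 of the 2 lower genes and passed the filter only through the sh-NC libraries, so that it had to differ. *Pros1* (0.41) and *Mfge8* (0.32), which bridge to TAM receptors and integrins, rose, and the integrin subunit *Itgb5* fell (-0.28). Of the TAM receptors, *Mertk* did not exceed 0.0653 RPKM, and *Axl*, under the filter and not tested, was at 0.987 ± 0.0407 RPKM in sh-NC and 0.0296 ± 0.0244 RPKM in sh-*Etv5* libraries (SD, n = 3).

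Family relatives of *Cd68*, *Mrc1* and *Olr1* gave 4 tested genes of 12. Of these, 1 was called higher and 3 lower, beside 74.3% of all tested genes called. The lysosomal *Lamp1*, of the family of *Cd68*, fell (log2 fold change -0.27), whereas *Lamp2* rose (0.51). Of the lectins encoded beside *Olr1*, *Clec7a* (dectin-1, a receptor for fungal glucans) was at 3.76 ± 0.699 RPKM in sh-NC and 0.347 ± 0.0782 RPKM in sh-*Etv5* libraries (SD, n = 3; log2 fold change -1.81). It too passed the filter only through sh-NC and had to be lower. *Clec12a*, an inhibitory lectin of myeloid cells, fell from 22.7 ± 0.973 to 9.94 ± 0.790 RPKM (log2 fold change -1.12, limma adjusted p = 2.03e-08). The relatives of *Mrc1* were not above the filter.

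**Figure D4:**
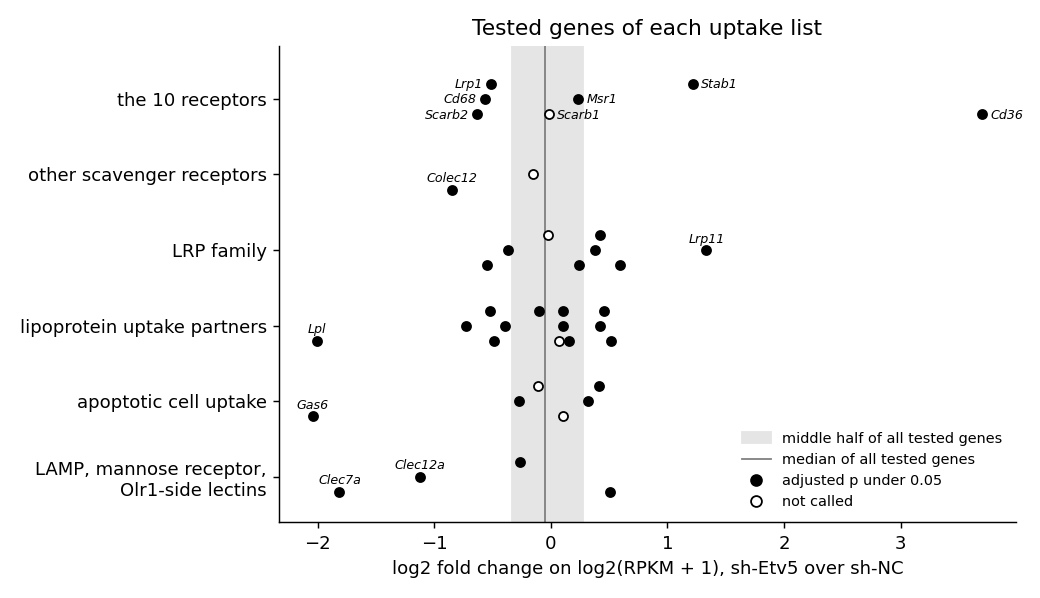
Log2 fold change on log2(RPKM + 1), sh-*Etv5* over sh-NC, of each tested gene in the receptor list and 5 related lists, 1 row per list, filled where called and open where not. The grey band holds the central part (between the quartiles) of all tested genes and the line their median of -0.05, and *Cd36* lies farthest to the right, at 3.70, with *Gas6* and *Lpl* farthest to the left, at -2.04 and -2.01.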

How the data were processed

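The authors prepared TruSeq libraries from polyA RNA for 3 sh-NC and 3 sh-*Etv5* samples and deposited 1 RPKM value per gene symbol and library, taken from coverage tracks on mm10 according to the submitters' processing notes and column headers. The aligner, annotation and use of strand are not given in the sources used here. All 6 columns were matched to samples by their description labels.

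Genes at 1 RPKM or more in 3 or more libraries were compared on log2(RPKM + 1) with limma 3.58.1 in R 4.3.3 (intensity trend, both directions, no covariate), the package that the study's methods name. In simulated libraries for 10738 genes, 100 genes were changed by 0.5 and 100 by 1 (log2), with independent noise in each library. Of these, 86% and 99% were called, with 7 false calls. Far fewer genes were changed there than were called in the real comparison, and differences between infections were not simulated. The number of false calls therefore does not carry over to the real comparison. Members under the filter were tested by exact permutation (SciPy 1.17.1). Positions, exon lengths and 50-base matches came from GENCODE M21 (GRCm38), and promoter windows from RefSeq (GRCm38.p6).

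Low RPKM values times exon length were searched for a commonest step in each library (48.3 in sh-NC replicate 1), which was read as 1 read or read pair. The number of reads behind a value is approximate, because the gene lengths of the authors are not known.

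The members and lists were chosen with earlier results of these data known. All members are named, and of each related list up to 5 called genes with the largest change. Further genes were named after their values were seen. Alternatives were other pseudocounts, filters, scalings and variance models, untransformed RPKM, a fold threshold, the replicate block and leaving out each library. A gene of the list of *Lrp1* relatives and a neighboring gene are not reported here.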

Additional observations from a re-analysis of the deposited data

How the results depend on the processing

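Under the pseudocounts of 0.1 and 0.01, the other scalings, no filter, eBayes without trend, untransformed RPKM and each library left out, *Cd36*, *Stab1* and *Msr1* stayed called as higher and *Cd68*, *Scarb2* and *Lrp1* as lower. Except in the fit without a filter, *Cd36* and *Stab1* had to be higher there, since they passed only through the sh-*Etv5* libraries. Their calls in those settings are therefore not read as support. With a mean RPKM of at least 5, *Stab1* was not tested. With an absolute log2 fold change above 1 required as well, 0 members were lower, and over all genes 669 were higher and 322 lower. *Scarb1* was not called under any of these, and its log2 fold change of -0.02 turned to 0.022 with quantile normalization and ran from -0.034 to 0.015 as libraries were left out in turn. *Ptprc*, also not called, turned to -0.0016 once all libraries had an equal sum of RPKM. The spread of *Lrp1* between libraries gave it a range from -0.61 to -0.41 as each library was left out.

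With the replicate number as a block, 3 members were higher and 3 lower, as without it, and 3539 genes were higher and 4361 lower, against 3575 and 4399. The adjusted p from limma with this replicate block was 0.77 for *Scarb1*. Same-numbered libraries did not deviate together (correlations of 0.07, -0.07 and -0.04 over tested genes), and not every library correlated best with its own number. The labels give no link beyond the number, and these correlations cannot tell whether libraries shared a preparation. Depth limits *Marco*, *Olr1* and *Mrc1*, for which no change was detectable.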

Other observations

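The nearest annotated protein-coding neighbors of the receptors were also read, and those given here were named after their values were seen. *Eif4a1*, 783 bases from *Cd68*, was at 254.2 ± 0.481 RPKM in sh-NC and 195.7 ± 12.1 RPKM in sh-*Etv5* libraries, and *Mpdu1* on its other side at 31.1 ± 0.467 and 25.3 ± 0.608 RPKM (SD, n = 3). *Nup54*, 6095 bases from *Scarb2*, was at 27.9 ± 0.653 and 19.9 ± 0.979 RPKM.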
